A study of Mus musculus with 4 samples.

Results

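The genes described here are interleukin 10 (Il10), the chains of its receptor (Il10ra and Il10rb), and transcription factors tied to it (Maf, Prdm1 and Stat3), which make 6 of the 35275 genes in the count table. They were measured in natural killer (NK) cells, lymphocytes of the innate immune system that can kill tumour cells. Il10 was selected on its measured counts, which were higher in both libraries labelled Irf4-/-, so its difference between genotypes is given as a description, without a test. The other 5 genes were chosen for what they are known to do, though with earlier results of these data already known. All 6 had counts in every library and passed the filter on low counts.

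The libraries were bulk RNA sequencing of splenic cells sorted as CD3-negative and NK1.1-positive. The mice were wild-type (WT) C57BL/6 or were labelled Irf4-/-, that is, knocked out for the transcription factor IRF4, with no Cre or cell type named. Injected mice of either genotype had been given the mouse melanoma line B16-F10 intravenously and were sampled on day 20, and control mice had received no cells. Each of the 4 groups (WT control, WT injected, Irf4-/- control and Irf4-/- injected) had 1 library. The age and sex of the mice, the number of animals behind a library and the part of Irf4 that was deleted are not stated by the labels.

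Interleukin 10 is a secreted cytokine that restrains inflammation. It binds a receptor of a ligand-binding chain, IL-10RA, and a chain shared with other cytokines, IL-10RB, which activate the kinases JAK1 and TYK2 and then the transcription factor STAT3. In lymphocytes the Il10 gene is known to be switched on by factors that include c-MAF (Maf) and BLIMP-1 (Prdm1), and NK cells are a known source of IL-10 in prolonged infection. Il10 mRNA is also controlled by its stability: AU-rich stretches in its 3′ untranslated region (3′UTR) are bound by proteins of the tristetraprolin family, encoded by Zfp36 and its relatives, which promote decay.

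Total counts were between 15878159 and 21104881 per library. The NK label matched its markers: all 15 NK markers had counts in every library, and their summed level was between 16874 and 18746 CPM (counts scaled to the library size). Irf4 itself went against its label, with 93 counts in the control and 57 in the injected WT library, and 188 and 236 in the control and injected libraries labelled Irf4-/-. In the additive fit described below, Irf4 rose by 1.72 on the log2 scale with the genotype label (SE 0.241, adjusted p = 0.00490, edgeR's quasi-likelihood test with Benjamini-Hochberg adjustment). Counts over the whole gene do not show whether a deleted exon was read. Among the 11998 genes tested, WT injected was the library farthest from the rest in median: its median absolute log2 difference was 0.21 from WT control, 0.22 from Irf4-/- control and 0.19 from Irf4-/- injected, against 0.12 to 0.15 between the other libraries.

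Il10 (ENSMUSG00000016529) lies on chr1:131019845-131024974 of GRCm38, the assembly that mm10 denotes, on the + strand, with 5 exons. Its transcript of 1310 bases ends in a 3′UTR of 706 bases, 53.9% of its length. The letters TATTTAT, the core of the AU-rich stretches that tristetraprolin-family proteins bind, were searched on the sense strand and occurred 4 times in that 3′UTR. The 4 sites are shown because AU-rich stretches are known to affect the stability of the Il10 message, with the searched letters in capitals and read 5′ to 3′ from the reference.
Il10 site 1: ctccgaaaTATTTATtacctctg
Il10 site 2: tcccattcTATTTATtcactgag
Il10 site 3: ttttacagTATTTATtattttta
Il10 site 4: cagtttgtTATTTATaaccacct
Site 1 covers chr1:131024388-131024410, site 2 chr1:131024421-131024443, site 3 chr1:131024484-131024506 and site 4 chr1:131024830-131024852. The first 3 lie close together, within bases 120 to 238 after the stop codon, and site 4 covers bases 562 to 584. Of 7247 tested genes whose 3′UTR is at least as long, 1151 (15.9%) held TATTTAT in the first 706 bases, and 0.152% held it at least as often as Il10. The shorter letters ATTTA, which overlap the longer ones, occurred 6 times, and 59.7% of these genes held them at least once. A match of letters describes the sequence and does not show that a protein binds there.

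Il10 was almost silent in WT control and well above the middle of the expressed genes in Irf4-/- injected. Its counts were 4 in the control and 21 in the injected WT library, and 120 in the control and 371 in the injected Irf4-/- library, or 0.189, 1.13, 7.54 and 19.9 CPM in that order. Per length, its deposited level was 0.145 and 0.860 FPKM (counts scaled to depth and gene length) in control and injected WT, and 5.77 and 15.2 in control and injected Irf4-/-. The order of the levels was the same on each scale, with both libraries labelled Irf4-/- above both WT libraries, and with each injected library above its own control. By FPKM, Il10 stood above 22.9% of the genes with a count in WT control and above 74.0% in Irf4-/- injected. In a bulk library, more cells that express Il10 and more Il10 RNA per cell cannot be told apart.

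Between genotypes, the Il10 level in Irf4-/- control was 39.9 times that in WT control, with an exact 95% counting interval from 15.2 to 149. In injected mice the ratio was 17.6, with an interval from 11.3 to 28.7. These intervals cover counting error between 2 libraries only, and without molecular identifiers PCR copies of 1 molecule can be counted more than once. The lower WT counts, 4 and 21, set most of the width. With a prior count of 2, which draws ratios of low counts towards 1, the log2 ratios were 4.69 in control mice and 4.01 in injected mice. Since the genotype ratio is what led to Il10 being picked, it supports nothing further here.

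Within each genotype the step from control to injected was larger than counting error. On the log2 scale without a prior count it was 2.58 in WT (interval 1.02 to 4.58) and 1.40 in Irf4-/- (1.10 to 1.71). The step between them in the order, from WT injected to Irf4-/- control, is fixed by how Il10 was picked and is given as a value only, 2.74. The fold from control to injected was 5.99 in WT (interval 2.02 to 24.0) and 2.64 in the libraries labelled Irf4-/- (2.14 to 3.27), and these intervals overlap.

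The injection effect on Il10 was not used to choose it and was tested. The fit was edgeR's quasi-likelihood test with additive terms for genotype and injection over the 4 libraries, so its error is the departure of these libraries from additivity, with 1 residual degree of freedom. Il10 rose with injection by 1.59 on the log2 scale (SE 0.301, 95% interval 0.92 to 2.25, adjusted p = 0.0453, edgeR with Benjamini-Hochberg adjustment). It was the only one of the 6 genes to pass, where 0.725% of all 11998 genes passed in either direction, 0.333% rose and 0.392% fell. The adjusted p stood close to the threshold of 0.05. With genotype left out of the model the log2 change was 1.49 and the adjusted p 0.740. By the rule of size for a pair of libraries (a mean of at least 5 CPM, a ratio of at least 2-fold and a counting interval that excludes no change), Il10 was 2-fold higher after injection in the libraries labelled Irf4-/-, where 0.134% of genes were. The WT pair was too low to be measured by that rule, at a mean of 0.661 CPM.

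**Figure D1:**
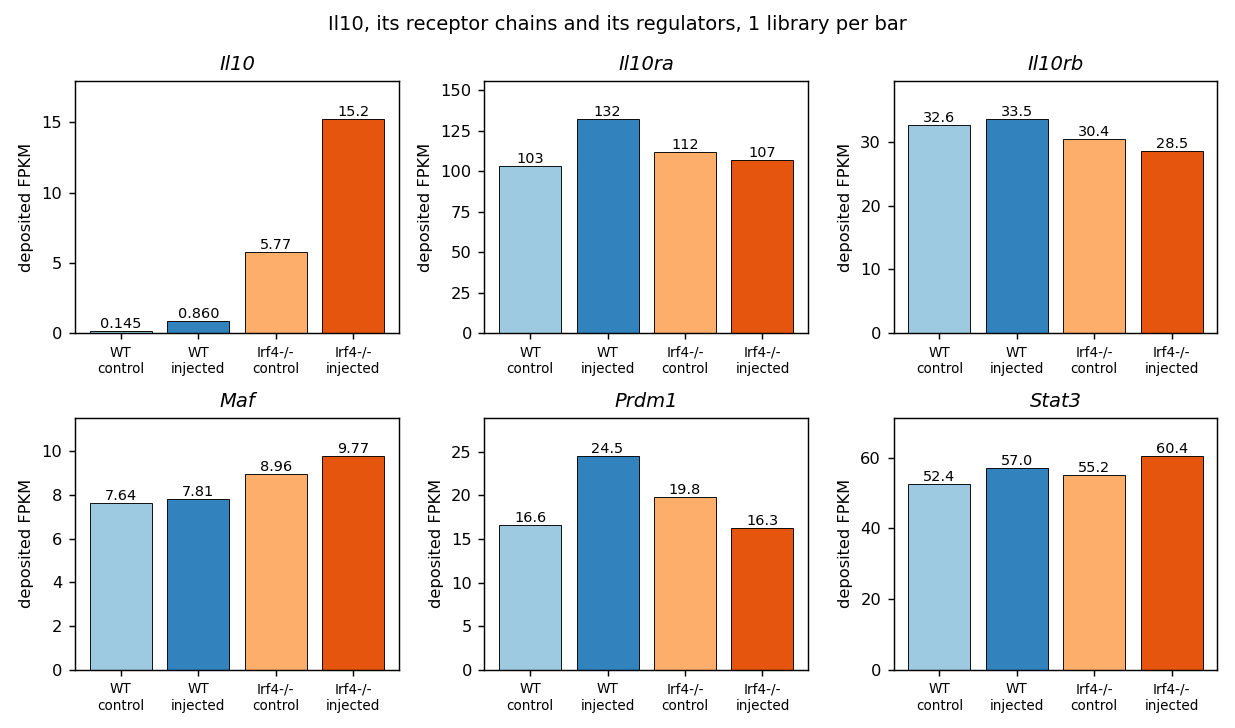
Deposited level (FPKM) of Il10, Il10ra, Il10rb, Maf, Prdm1 and Stat3 in the 4 libraries, 1 bar per library, each gene on its own axis from 0. Il10 runs from 0.145 to 15.2 FPKM, while no other gene's highest level exceeds 1.50 times its lowest.

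The receptor chains were expressed in every library, and neither passed a test. Il10ra (ENSMUSG00000032089, chr9:45253837-45269149, - strand), the ligand-binding chain, was the most abundant of the 6 genes per length, at 103 FPKM in the control and 132 in the injected WT library, and 112 in the control and 107 in the injected Irf4-/- library. Its highest level was 1.28 times its lowest, and WT injected stood above the other libraries. The additive fit gave a genotype effect of -0.10 on the log2 scale (95% interval -0.37 to 0.18, adjusted p = 0.888, edgeR quasi-likelihood) and an injection effect of 0.15 (-0.12 to 0.43, adjusted p = 0.620). The single additive value hides a split: Il10ra was higher in Irf4-/- than in WT among control libraries, by 0.12 (counting interval 0.07 to 0.16), and lower among injected libraries, by a log2 ratio of -0.31 (-0.36 to -0.26).

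Il10rb (ENSMUSG00000022969, chr16:91406164-91425834, + strand), the chain shared with receptors for interleukin 22 and lambda interferons, was at 32.6 FPKM in the control and 33.5 in the injected WT library, and 30.4 in the control and 28.5 in the injected Irf4-/- library. Both libraries labelled Irf4-/- were below both WT libraries, although the highest level was only 1.17 times the lowest. The counting intervals of WT injected against WT control and of Irf4-/- injected against Irf4-/- control both included no difference. The genotype effect was -0.17 on the log2 scale (95% interval -0.38 to 0.04, adjusted p = 0.619, edgeR quasi-likelihood) and the injection effect -0.02 (-0.23 to 0.19, adjusted p = 0.957).

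Stat3 (ENSMUSG00000004040, chr11:100885098-100939540, - strand), the factor activated by the receptor and also by interleukins 6, 21 and 27, was at 52.4 FPKM in the control and 57.0 in the injected WT library, and 55.2 in the control and 60.4 in the injected Irf4-/- library. It had the smallest spread of the 6, with a highest level 1.15 times the lowest. Its log2 ratio between genotypes was 0.08 in control mice and 0.08 in injected mice, and its ratio after injection was 0.13 in both genotypes. The additive effects of 0.08 for genotype (95% interval -0.16 to 0.31, adjusted p = 0.898) and 0.13 for injection (-0.10 to 0.36, adjusted p = 0.603) did not pass edgeR's quasi-likelihood test. These values count Stat3 RNA and say nothing of its phosphorylation.

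Maf (ENSMUSG00000055435, chr8:115682942-115707794, - strand) encodes c-MAF, a factor that activates Il10 in several T helper subsets. Its deposited level was 7.64 FPKM in the control and 7.81 in the injected WT library, and 8.96 in the control and 9.77 in the injected Irf4-/- library. Both libraries labelled Irf4-/- were above both WT libraries, by a log2 ratio of 0.23 in control mice (counting interval 0.10 to 0.36) and 0.31 in injected mice (0.19 to 0.44). The genotype effect of 0.27 on the log2 scale (SE 0.103, 95% interval 0.04 to 0.50) had an unadjusted p of 0.0239 in the edgeR test and did not pass after adjustment over all genes (adjusted p = 0.367). Beside the Il10 genotype ratios given above, the Maf ratios were small, and both come from the same libraries.

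Prdm1 (ENSMUSG00000038151, chr10:44437177-44528501, - strand) encodes BLIMP-1, a repressor of lymphocyte programmes that is also tied to Il10 in effector and regulatory T cells. It was at 16.6 FPKM in the control and 24.5 in the injected WT library, and 19.8 in the control and 16.3 in the injected Irf4-/- library. WT injected was the highest library, and Irf4-/- injected, where Il10 peaked, was the lowest and differed from WT control by less than counting error (log2 difference 0.02, interval -0.08 to 0.12). The genotype ratio was 0.25 on the log2 scale in control mice (counting interval 0.15 to 0.35) and -0.59 in injected mice (-0.68 to -0.50). After injection Prdm1 was higher in WT, by 0.57 (0.48 to 0.66), and lower in Irf4-/-, at -0.27 (-0.37 to -0.17). In Prdm1, too, neither additive effect passed edgeR's quasi-likelihood test, with -0.17 for genotype (95% interval -0.53 to 0.18, adjusted p = 0.825) and 0.15 for injection (-0.20 to 0.51, adjusted p = 0.714).

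None of the 5 genes other than Il10 passed the genotype test, where 1.48% of all genes did (1.22% rose and 0.258% fell). Of these 5, Maf alone had an unadjusted p under 0.05 for genotype in edgeR, as had 1250 of all 11998 genes. For injection 0 of the 5 had, against 1700 of all genes, and 0 passed either effect with DESeq2 or limma-voom. By the 2-fold rule, 0 of these 5 were called between genotypes in control mice, where 0.807% of genes were (0.725% higher, 0.0828% lower), and in injected mice, where 1.78% were (1.12% higher, 0.661% lower). After injection of WT mice 0 of the 5 were called, where 1.90% of genes were (1.11% higher, 0.789% lower). After injection of Irf4-/- mice 0 of the 5 were called, where 0.350% were (0.134% higher, 0.216% lower). At these depths of 905 counts or more per gene and library, counting error was small, and the 95% intervals of the additive fit bound each of the 10 effects of these 5 genes between -0.53 and 0.51 on the log2 scale. The 4 comparisons of library pairs share libraries, so values of 1 gene across them are not independent.

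**Figure D2:**
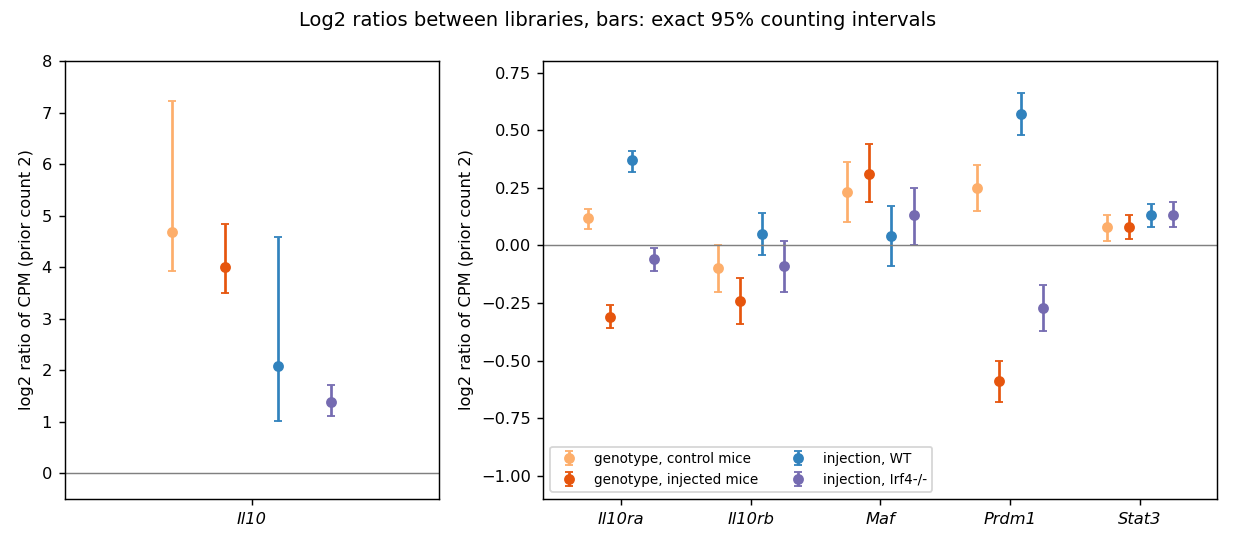
Log2 ratios of CPM (prior count 2) for the 4 pairs of libraries, with exact 95% counting intervals. Il10, on its own axis at left, lies above 0 in every pair, while Il10ra and Prdm1 lie above 0 between genotypes in control mice and below 0 in injected mice.

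Per length, the order of the 6 genes in both WT libraries was Il10ra, Stat3, Il10rb, Prdm1, Maf and Il10, from high to low. In Irf4-/- control the order was the same, with Il10 at 5.77 FPKM under Maf at 8.96. In Irf4-/- injected, Il10 at 15.2 FPKM stood above Maf at 9.77 and just under Prdm1 at 16.3.

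Il10 was the single member of its cytokine family with counts. The other 7 genes of the list (Il19, Il20, Il24, Il22, Iltifb, Ifnl2 and Ifnl3) had 0 counts in all 4 libraries, where a count of 0 allows up to 3 counts, or 0.142 to 0.189 CPM depending on the library. Il19, Il20 and Il24 lie beside Il10 on chromosome 1, Il19 being the nearest, with its start at -79.7 kb from that of Il10. Within 500 kb of the Il10 start there were 26 other genes, of which 7 had no count in any library and 8 passed the filter. None of those 8 was called between genotypes, where 1.48% of all genes were, and their log2 effects ran from -0.10 to 0.21.

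Mapkapk2, 78.0 kb beyond the Il10 start, encodes MK2, a kinase that stabilises AU-rich messages by acting on tristetraprolin. It had 3230, 3528, 2719 and 3464 counts in WT control, WT injected, Irf4-/- control and Irf4-/- injected, with a genotype effect of 0.06 (adjusted p = 0.917, edgeR quasi-likelihood). Fcmr, a receptor for immunoglobulin M found on B cells, was the single neighbour to pass the injection test, where 0.725% of all genes did. It reached the filter of 1 CPM only in the control libraries, so it entered the test through the libraries where it was high. Its counts were 78, 12, 47 and 15 in the same order, and it fell by 2.18 on the log2 scale (adjusted p = 0.0429, edgeR; 0.0509 with limma-voom), the opposite direction to Il10. The summed level of the 11 B cell markers was 170.3, 113, 202 and 179 CPM in the same order, and its part in the fall of Fcmr was not tested. Gm28913 and other antisense genes of the window share positions with their partners, and reads of the pair cannot be told apart without the strand setting.

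**Figure D3:**
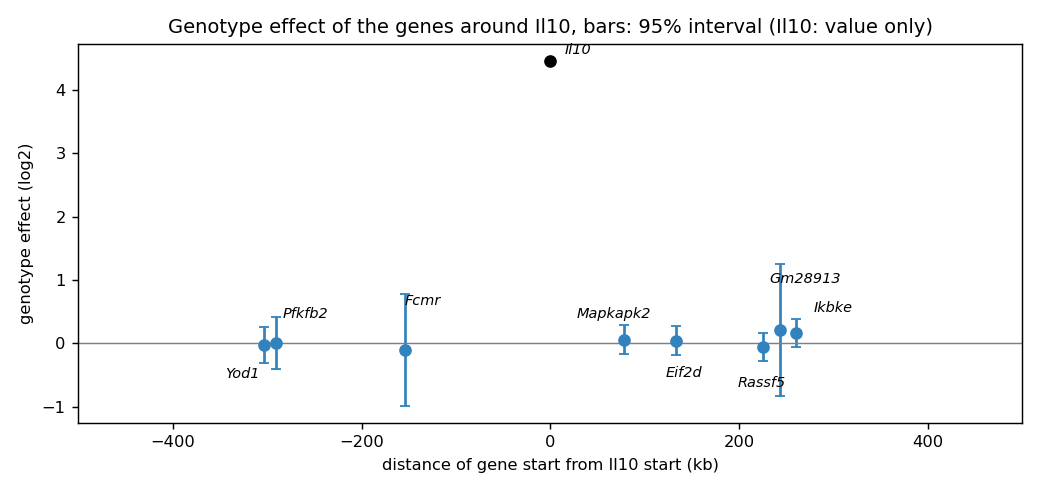
Genotype effect (log2, additive fit) of the 8 tested genes within 500 kb of Il10 against the distance of their start from that of Il10, with 95% intervals. Il10 is drawn as a value only, and its neighbours lie between -0.10 and 0.21.

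Related receptors were measured beside Il10ra and Il10rb. Of 11 class II cytokine receptor genes, the family of Il10ra and Il10rb, 8 were tested and 0 passed either effect in edgeR, DESeq2 or limma-voom. In edgeR 1.48% of all genes passed for genotype and 0.725% for injection. At an unadjusted p under 0.05 in edgeR there were 0 receptor genes for genotype and 1 for injection, against 1250 and 1700 of all 11998 genes. The medians were -0.10 for genotype and 0.12 for injection, against 0.00 over all genes. Jak1, bound to IL-10RA, was at 2048 CPM in the control and 2286 in the injected WT library, and 2239 in the control and 2556 in the injected Irf4-/- library, with a genotype effect of 0.14 (adjusted p = 0.820, edgeR).

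Among genes known to respond to STAT3 or IL-10, 1 rose and 1 fell with genotype. Of 21 genes, 20 were tested, Pim2 rose with genotype, where 1.22% of all genes rose, Bcl2l1 fell, where 0.258% fell, and the median was 0.00. Of the 20, 8 for genotype and 10 for injection had an unadjusted p under 0.05 in edgeR, against 1250 and 1700 of all 11998 genes. Pim2, a survival kinase induced by STAT signalling, had 83.8 CPM in the control and 156 in the injected WT library, and 313 in the control and 561 in the injected Irf4-/- library, the same order of libraries as Il10. Pim2 rose with genotype by 1.88 (SE 0.106, adjusted p = 1.33e-05, edgeR) and with injection by 0.87 (SE 0.104, adjusted p = 0.00488, edgeR). It was the single gene of the list to pass the injection test, where 0.333% of all genes rose. Bcl2l1, which encodes the survival protein BCL-xL, was at 60.6, 61.5, 44.0 and 40.9 CPM in the same order and fell by 0.53 with genotype (adjusted p = 0.0408, edgeR; 0.167 with DESeq2). In the injected pair, 2 genes of the list were more than 2-fold lower in Irf4-/- (0.661% of all genes measured were), opposite to Il10 and Pim2. Dusp1, a phosphatase that restrains MAP kinases, was at 25.1, 38.7, 38.9 and 14.2 CPM, with log2 genotype ratios of 0.63 in control mice (counting interval 0.46 to 0.80) and -1.44 in injected mice (-1.66 to -1.24). Tnfaip3, which encodes the NF-kB inhibitor A20, was at 121, 280.1, 119 and 116 CPM, with ratios of -0.02 (-0.10 to 0.07) and -1.27 (-1.35 to -1.20), WT injected being the high library. Its genotype effect of -0.65 did not pass edgeR's test (adjusted p = 0.284), but did with median-of-ratios scaling (adjusted p = 0.00720) and with no filter (adjusted p = 9.97e-06). Socs3, the feedback inhibitor that STAT3 induces, was at 39.6, 59.5, 45.6 and 53.4 CPM, higher in each injected library than in its control, with an injection effect of 0.41 that did not pass (adjusted p = 0.161, edgeR).

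Among 39 transcription factors tied to Il10 in the literature of lymphocytes and myeloid cells, Irf4 and Bhlhe40 rose with genotype and 0 fell. Over all genes tested, 1.22% rose and 0.258% fell with genotype. For injection 0 passed in edgeR or DESeq2, where 0.725% of all genes passed in edgeR. An unadjusted p under 0.05 in edgeR was reached by 9 of the 39 for genotype and 5 for injection. Over all 11998 genes it was reached by 1250 and 1700. The medians were -0.02 for genotype and 0.08 for injection. Bhlhe40, known in T cells as a repressor of Il10, was at 147 CPM in the control and 179 in the injected WT library, and 209 in the control and 244 in the injected Irf4-/- library, in the same order of libraries as Il10 (log2 effect 0.48, SE 0.0990, adjusted p = 0.0417, edgeR). Nfil3, a factor needed for NK cell development, was at 48.3, 54.0, 40.2 and 34.2 CPM, with both libraries labelled Irf4-/- below both WT libraries and a genotype effect of -0.46 that did not pass (adjusted p = 0.158, edgeR).

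Of 23 cytokines and receptors that can induce Il10, 17 were tested. Il2ra alone rose with genotype, where 1.22% of all genes rose, with 0 falling and a median of 0.07. At an unadjusted p under 0.05 in edgeR were 4 of the 17 for genotype and 3 for injection, against 1250 and 1700 of all 11998 genes. Il2ra, the alpha chain that gives the interleukin 2 receptor its high affinity, had 81 counts in the control and 161 in the injected WT library, and 286 in the control and 554 in the injected Irf4-/- library, again in the order of Il10. It rose with genotype by 1.98 (SE 0.189, adjusted p = 0.000432, edgeR), while its injection effect of 0.92 missed the threshold (adjusted p = 0.0555, edgeR) and passed it under 4 of 8 alternatives. Il27ra, the receptor chain for interleukin 27, was at 130.2, 91.2, 143 and 158 CPM, with both libraries labelled Irf4-/- above both WT libraries and a genotype effect of 0.46 that did not pass (adjusted p = 0.198, edgeR).

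Of 11 genes of the coinhibitory programme that interleukin 27 induces together with Il10 in T cells, 7 were tested. Lag3 rose with genotype, where 1.22% of all genes rose, and Tigit rose with injection, where 0.333% rose. For either effect 0 fell, and the medians were 0.09 for genotype and 0.31 for injection. At an unadjusted p under 0.05 in edgeR were 3 of the 7 for each effect, against 1250 (genotype) and 1700 (injection) of all 11998 genes. Lag3, a receptor for MHC class II, was at 9.78 CPM in the control and 13.2 in the injected WT library, and 19.7 in the control and 27.7 in the injected Irf4-/- library (log2 effect 1.04, SE 0.158, adjusted p = 0.00769, edgeR). Tigit, a receptor for nectin-like ligands, was at 31.6, 90.1, 27.8 and 50.8 CPM, so that WT injected held the highest level, unlike Il10 (log2 injection effect 1.20, SE 0.148, adjusted p = 0.00570, edgeR).

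Of the genes that IL-10 is known to restrain, 0 of 10 tested passed either effect in edgeR, DESeq2 or limma-voom (2 at an unadjusted p under 0.05 for each effect). With 1.48% of all genes passing for genotype and 0.725% for injection in edgeR, a count of 0 in 10 genes is near the background. Of all 11998 genes, 1250 had an unadjusted p under 0.05 in edgeR for genotype and 1700 for injection. The list had a genotype median of 0.19 and an injection median of 0.01. The largest genotype effect of the list was that of Csf2, the gene of the myeloid growth factor GM-CSF, at 1.42, 1.46, 2.64 and 4.24 CPM in WT control, WT injected, Irf4-/- control and Irf4-/- injected (log2 1.23, SE 0.365, adjusted p = 0.197, edgeR). Tnf followed, at 5.62, 4.10, 7.41 and 11.0 CPM (log2 0.91, SE 0.277, adjusted p = 0.210, edgeR). Both genes, which lie low in these cells, were higher in each library labelled Irf4-/- than in either WT library.

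Of 12 genes tied to the decay or stability of mRNA, all tested, 0 passed in edgeR, DESeq2 or limma-voom (1 at an unadjusted p under 0.05 for each effect). The count of 0 that passed is again near the background of 1.48% for genotype and 0.725% for injection. At an unadjusted p under 0.05 in edgeR the background was 1250 genes for genotype and 1700 for injection, of 11998. The medians were -0.03 and 0.01. Zfp36, which encodes tristetraprolin, was at 158 CPM in the control and 127 in the injected WT library, and 137 in the control and 148 in the injected Irf4-/- library, with a genotype effect of 0.01. Zfp36l2, a relative that also promotes decay, was at 1613, 2758, 1685 and 977 CPM, highest in WT injected and lowest in Irf4-/- injected. Its log2 ratio between genotypes was 0.06 in control mice (counting interval 0.04 to 0.09) and -1.50 in injected mice (-1.52 to -1.47), past the 2-fold rule, where 0.661% of genes were lower. The additive genotype effect of -0.72 (SE 0.280) did not pass edgeR's quasi-likelihood test (adjusted p = 0.390), but did with median-of-ratios scaling (adjusted p = 0.0315) and with no filter (adjusted p = 3.25e-06).

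The genes nearest to Il10 in pattern were found by the distance between log2 CPM values centred on each gene's own mean over the 4 libraries, among 10614 protein-coding genes. They were Grhl3 (distance 0.72), Nbea (1.03), Ccn5 (1.70), Upp1 (1.75) and Ifi211 (1.94), where the median gene lay at 4.71. Grhl3, a transcription factor of epithelia, had 1 count in the control and 4 in the injected WT library, and 38 in the control and 132 in the injected Irf4-/- library. Nbea, which encodes neurobeachin, a protein of vesicle traffic, had 15, 22, 185 and 497 counts in the same order. Upp1, a uridine phosphorylase, had 3, 8, 32 and 58 counts, and Ifi211, of the interferon-induced p200 family, had 41, 65, 201 and 431. Ccn5, a secreted matrix-associated protein, had 0, 13, 18 and 58 counts. All 5 shared with Il10 the order of the 4 libraries, and with 4 points per gene this likeness is a description of these libraries.

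**Figure D4:**
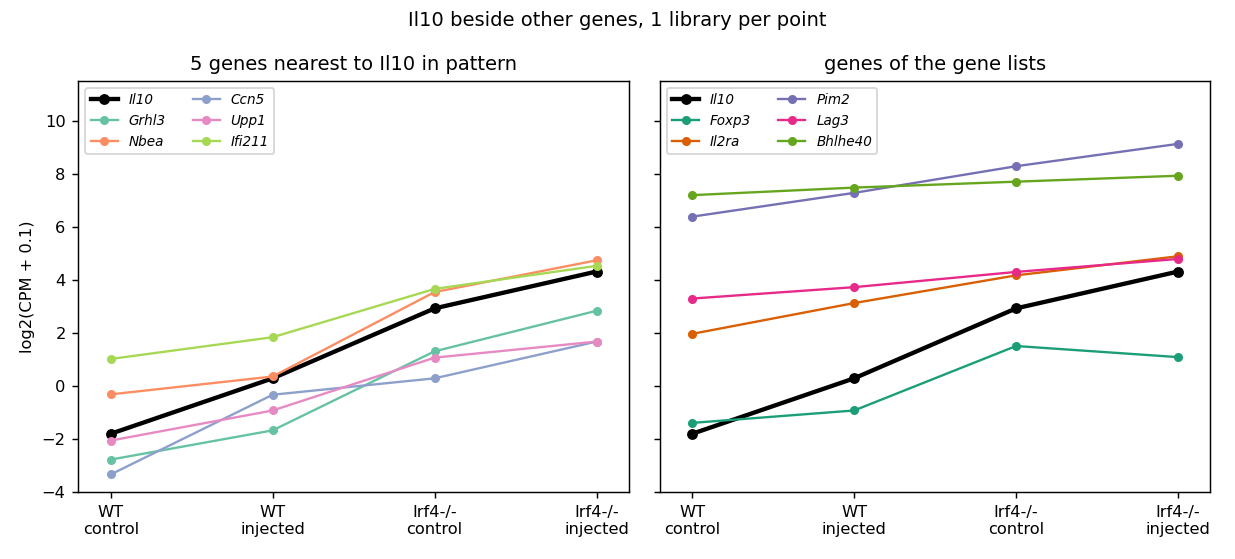
Level of Il10 (black) in the 4 libraries on the log2(CPM + 0.1) scale, beside the 5 genes nearest to it in pattern (left) and 5 genes of the lists that rose with the genotype label (right). Heights are not per length, so only the shapes compare: Il10, Pim2, Il2ra, Lag3 and Bhlhe40 climb from WT control to Irf4-/- injected, and Foxp3 is lower in Irf4-/- injected than in Irf4-/- control.

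Markers of other cells that can make IL-10 were measured beside it. Of 7 regulatory T cell markers, 4 were tested, and Foxp3 and Il2ra rose with genotype, where 1.22% of all genes rose. Foxp3, the defining factor of regulatory T cells, had 6 counts in the control and 8 in the injected WT library, and 44 in the control and 38 in the injected Irf4-/- library. Its log2 genotype effect was 2.73 (SE 0.494, adjusted p = 0.0213 with edgeR and 0.123 with DESeq2). Foxp3 reached the filter of 1 CPM only in the libraries labelled Irf4-/-, so it entered the test through the libraries where it was high. The summed level of the 7 markers was 53.5, 50.6, 70.6 and 78.7 CPM in the same order, with Lrrc32 at 0 in every library. Ikzf2 made most of that sum, at 45.5, 33.5, 45.4 and 42.3 CPM. Il2ra, unlike Ikzf2, was higher in both libraries labelled Irf4-/- than in either WT library, at 3.83, 8.68, 18.0 and 29.7 CPM. Tnfrsf4 was at 3.45, 6.96, 3.90 and 4.02 CPM, and Ctla4 had 1, 9, 4 and 3 counts, both highest in WT injected. Ikzf2 and Tnfrsf4, the other markers tested, passed neither effect. Between the libraries labelled Irf4-/-, Il10 was 2.64 times higher after injection while the Foxp3 log2 ratio was -0.42 (counting interval -1.11 to 0.22). The 10 T cell markers summed to 207, 218, 190.3 and 218 CPM, and Cd3e was at 9.31, 5.28, 5.22 and 6.06 CPM. Of 9 tested, 0 passed edgeR or DESeq2. At an unadjusted p under 0.05 in edgeR were 1 for genotype and 0 for injection, against 1250 and 1700 of all 11998 genes. In edgeR 1.48% of all genes passed for genotype and 0.725% for injection. The part of these cells in the Il10 levels was not tested.

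Of 11 B cell markers, Cd74 rose with genotype (log2 0.55, adjusted p = 0.0283 with edgeR and 0.0594 with DESeq2), where 1.22% of all genes rose. The 7 plasma cell markers summed to 105, 79.4, 106 and 87.5 CPM in WT control, WT injected, Irf4-/- control and Irf4-/- injected, with Tnfrsf17 at 0 in every library. Xbp1 made most of that sum, and the other 6 summed to 13.8, 11.4, 19.7 and 4.08 CPM. Jchain, the joining chain of secreted immunoglobulin, was at 2.65, 2.70, 3.58 and 0.107 CPM and Igkc, a light chain gene, at 9.83, 7.55, 13.3 and 2.47 CPM. Both were lowest in Irf4-/- injected, as was Sdc1, with 4, 8, 5 and 3 counts. Mzb1 (14, 4, 23 and 14 counts) and Derl3 (9, 9, 17 and 11) were instead higher in Irf4-/- injected than in WT injected. The 14 monocyte and macrophage markers summed to 46.1, 104, 67.0 and 81.0 CPM, higher in each injected library. With injection Vcam1 and C1qc rose, where 0.333% of all genes rose (C1qc adjusted p = 0.101 with DESeq2). Lyz2 fell, where 0.392% fell. The 9 dendritic cell markers, of which NK cells also express some, summed to 1464, 1212, 1864 and 1918 CPM, with no genotype call in edgeR and 1 with DESeq2. The 7 mast cell and basophil markers summed to 2.58 to 3.59 CPM and the 7 neutrophil markers to 1.28 to 2.86 CPM, with Ly6g at 0 in every library. Whether any of these cells had a part in the Il10 levels was not tested.

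Genes linked to tissue-resident innate lymphoid cells (ILC1), which are also NK1.1-positive and so can pass this sort, were measured too. The list, Ly6a included, is not limited to genes particular to these cells. Cxcr6, Tnfsf10, Cd200r1 and Ly6a rose with genotype, 4 of 7 where 1.22% of all genes rose. Il7r alone rose with injection, 1 of 7 where 0.333% rose. The lists, this one included, were chosen with earlier results of these data known, so their shares of called genes are a description only. Itga1 and Zfp683 passed neither effect. The summed level of the 7 genes was 127 CPM in the control and 265 in the injected WT library, and 185 in the control and 329 in the injected Irf4-/- library. Il7r, the interleukin 7 receptor, had 1301, 3709, 1016 and 2685 counts, and without it the other 6 summed to 65.7, 65.0, 121 and 185 CPM in the same order. Between the WT libraries the higher sum after injection was that of Il7r alone. Cxcr6, a homing receptor of resident lymphocytes, was at 8.13, 11.2, 29.8 and 53.3 CPM, in the order of Il10 (log2 genotype effect 2.07, SE 0.156, adjusted p = 7.89e-05, edgeR). The part of these cells in the Il10 levels was not tested.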

How the data were processed

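Gene-level read counts, whole numbers that were not normalized, and FPKM values were deposited by the authors for 4 libraries, 1 per group. Per the submitters' processing notes, TopHat, edgeR and the mm10 build were used; for versions, counting tool, annotation and strand setting, nothing is given in the sources used here. Per the labels' protocols, NK cells were kit-enriched, sorted and made into SMARTER mRNA libraries. The deposited FPKM equalled count over library total and a whole gene length for all 72455 nonzero values (tolerance 0.01 bp). Symbols matched 34490 of 35275 identifiers in GENCODE.

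The 11998 genes that reached 1 CPM in 2 or more libraries were scaled by TMM and fitted in edgeR 4.0.16 (R 4.3.3; prior degrees of freedom 9.62, biological coefficient of variation 9.98%), two-sided, with Benjamini-Hochberg adjustment at 0.05. "Rose" and "fell" refer to this test. Its p-values rest on the departure of these libraries from an additive model, a spread that may be technical, and a response that differs between genotypes counts as error. Standard errors were the log2 change over the square root of F. Ratios of library pairs used a prior count of 2 and exact (Clopper-Pearson) 95% intervals, and compare libraries, not conditions. A list's median is over members tested.

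Members and lists were chosen with earlier results of these data known. Named genes are the members, Irf4, up to 3 genes per pathway list and effect with the largest change, up to 3 markers per list, neighbours within 500 kb and the 5 nearest patterns; some were left out for length, and others in the lists were named for passing a test or for their role after their values were seen. Both steps were tested on simulated data. Alternatives were other scalings, filters and prior counts (0.5 and 5), FPKM plus 0.1, a mean of 1 CPM, DESeq2 1.42.0, limma-voom (limma 3.58.1) and 1 term left out. A few results are not reported here. Promoters of Il10, Il10ra, Il10rb and Maf were not used here. Figures were drawn in matplotlib 3.10.9.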

Additional observations from a re-analysis of the deposited data

Results flagged for a closer look

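For Prdm1 the log2 ratio of genotypes in injected mice minus that in control mice was -0.84. It stands out because the genotype ratio had opposite signs in control mice (0.25) and injected mice (-0.59), each with a counting interval that excluded 0. The same held for Il10ra, where the difference was -0.43, from 0.12 in control mice to -0.31 in injected mice. For both genes WT injected was the highest of the 4 libraries. With 1 library per group neither difference was tested. Across scalings, prior counts and FPKM values the difference ran from -0.84 to -0.83 for Prdm1 and from -0.43 to -0.42 for Il10ra.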

How the results depend on the processing

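The 5 members other than Il10 passed neither effect under any of the 8 alternatives to the fit. Il10 kept its injection call in 7 of 8, with log2 changes from 1.49 to 1.73, and lost it with genotype left out (1.49, adjusted p = 0.740, edgeR); adjusted p over the alternatives ran from 3.84e-06 to 0.740. The genotype calls of the other genes named were lost with injection left out (edgeR adjusted p from 0.0877 to 0.549), and the injection calls with genotype left out (0.157 to 0.704). Counts over all genes moved more, and the cause was not tested. With genotype, 146 genes rose and 31 fell; scaling by median of ratios gave 261 and 113, leaving out the filter 326 and 152, and leaving out injection 3 and 2. With library totals 57 fell and with DESeq2 14. With injection 40 rose and 47 fell; scaling by median of ratios gave 230 and 228, by upper quartile 113 and 100, by library totals 125 and 150, and leaving out the filter 311 and 303. With genotype left out 0 rose and 0 fell in edgeR, while 1091 genes had an unadjusted p under 0.05. By the 2-fold rule at a mean of 1 CPM in place of 5, genotype gave 171 higher and 50 lower in control mice and 242 and 203 in injected mice, and injection gave 340 and 202 in WT and 88 and 102 in Irf4-/-. The Il10 genotype ratio ran from 4.09 to 5.13 on the log2 scale in control mice and from 3.85 to 4.10 in injected mice, and its injection ratio from 1.65 to 2.43 in WT and 1.37 to 1.40 in Irf4-/-. Leaving out a library could not be fitted, since 3 libraries leave the additive model no residual degree of freedom. No paired analysis was possible because the labels carry no replicate numbers. Depth limits the Il10 values most in WT control, where it rests on 4 counts.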
